A study of Mus musculus with 64 samples.

Results

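Liver and hippocampus of the same WT mice were compared in the vehicle group of the continuous corticosterone (CORT) experiment. The comparison used 8 of the 64 RNA-seq libraries of the series, namely the liver and the hippocampus of mice 1, 4, 6 and 17, with a library of the other tissue taken as the same mouse where it carried the same number. The mice were WT male offspring, 10 to 18 weeks old, of a C57BL/6J father and a 129sv mother that carried the Ube3a deletion on her paternal allele, and they had received a subcutaneous pellet of cholesterol without CORT. All 8 libraries therefore share the F1 hybrid background, the pellet surgery and the absence of CORT. Mouse 13, the fifth animal of the group, was not used in the main comparison because the study set its hippocampal library aside as a technical outlier. The hippocampal RNA came from the left hippocampus. Both tissues were whole pieces, in which fewer cells of a type and less RNA per cell cannot be told apart.

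Hepatocytes make up most of the liver. They secrete albumin, apolipoproteins and clotting factors into the blood, convert ammonia to urea, and clear bile acids, drugs and steroids with cytochrome P450 enzymes. The hippocampus holds glutamatergic pyramidal and granule neurons, GABAergic interneurons, astrocytes, oligodendrocytes, microglia and vessels, and its neurons depend on ion pumps, vesicle release and synaptic scaffolds. The liver is known to express few genes at very high levels, while brain tissue uses a broad range of genes at moderate levels.

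Gene counts ranged from 19112929 to 21765362 per hippocampal library and from 19497350 to 19870624 per liver library. Reads that were assigned to no gene made up 11.8 to 12.6% of the hippocampal and 19.1 to 20.7% of the liver reads. Levels are given in CPM after scaling by edgeR's TMM factors, and 3 counts, taken as the floor of a library, were 0.101 to 0.118 CPM in hippocampus and 0.194 to 0.213 CPM in liver. The TMM factors themselves raised liver against hippocampus by 0.86 on the log2 scale, so that log2 differences of this size or smaller depend on the scaling. With TMM the median log2 fold change of liver over hippocampus was -0.16 over the genes tested, and with library totals alone it was -1.02.

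The hippocampus of mouse 1 stood apart in genes of the liver. Over 56 genes with at least 1000 CPM in each liver library and a hippocampal median under 1 CPM, all computed here, with the ratios that follow, from library totals without TMM factors, it held 4513 counts, against 280 in mouse 4, 155 in mouse 6 and 219 in mouse 17. It was the highest of the 4 hippocampal libraries for 56 of the 56 genes, at a median of 0.114% of the liver level of the same mouse. The quartiles of this ratio were 0.0927% and 0.14%. In the other 3 libraries the median was 0.00236%. Counts of liver-restricted genes are therefore also given without this library. In the opposite direction, 87 genes abundant in hippocampus reached between 1095 and 1560 counts in the 4 liver libraries, which was 0.0578 to 0.0814% of the hippocampal level of the same mouse. The source of these reads was not tested.

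The counts of the liver were concentrated on far fewer genes. The 10 leading genes of a library held 16.2, 17.9, 17.3 and 18.4% of the gene counts in the livers of mice 1, 4, 6 and 17, and 5.07, 4.97, 4.74 and 4.34% in the hippocampi of the same mice. The tissues did not overlap, and the means were 17.5% ± 0.951 (SD, n = 4) and 4.78% ± 0.323 (SD, n = 4). In liver, 50% of the counts fell on 189 to 213 genes, and in hippocampus on 990 to 1033 genes. The effective number of genes, the exponential of the Shannon entropy of the counts, was 1371 ± 62.3 (SD, n = 4) in liver and 4757 ± 91.0 (SD, n = 4) in hippocampus. After thinning of every library to 19112929 counts, genes with at least 10 counts numbered 13013 ± 143 (SD, n = 4) in liver and 16021 ± 111 (SD, n = 4) in hippocampus. Each of these 4 differences had an exact two-sided permutation p of 0.0286 and an adjusted p of 0.0357 over 5 measures, and 0.0286 is the smallest p that 4 against 4 libraries can give. Paired by mouse, with the signs of the 4 differences exchanged, each had an exact permutation p of 0.125, the smallest that 4 pairs allow, which does not pass.

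**Figure D1:**
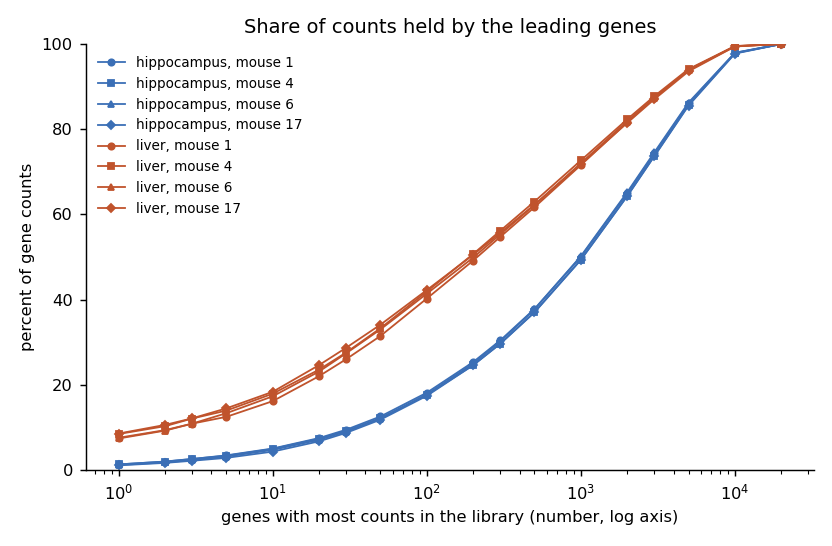
Cumulative percent of the gene counts (linear axis) against the number of genes with most counts in a library (log axis), 1 line per library and 1 marker shape per mouse. The 4 liver lines lie above the 4 hippocampal lines from the leading gene, at 7.42 to 8.59% against 1.11 to 1.34%, and meet them near the total.

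The 5th measure, the share of the 13 mitochondrially encoded protein genes, did not pass. It was 3.10, 3.79, 3.98 and 4.53% in the livers and 3.15, 3.05, 2.81 and 2.59% in the hippocampi of mice 1, 4, 6 and 17, so that the liver of mouse 1 fell below the hippocampus of mouse 1 (exact permutation p = 0.0571, adjusted p = 0.0571). Per length, in TPM, the direction turned, with a share lower by 1.04 percentage points in liver (exact permutation p = 0.200, n = 4 per tissue). mt-Co1, a subunit of cytochrome c oxidase, was the top gene of the hippocampus at 1.25% ± 0.109 (SD, n = 4) of its counts and the second of the liver at 1.80% ± 0.204 (SD, n = 4). mt-Co3, which encodes another subunit of this enzyme, was at 121 CPM in the hippocampus of mouse 17 and between 1.26 and 4.80 CPM in the other 7 libraries. Mitochondrial genes have copies in the nuclear genome, and reads that match more than 1 place were not counted, so their levels are uncertain.

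Albumin alone took 8.02% ± 0.60 (SD, n = 4) of the liver counts. Alb was at 102615, 115584, 103000 and 109867 CPM in the livers of mice 1, 4, 6 and 17 and at 66.7, 1.64, 0.0393 and 0.236 CPM in their hippocampi. All 4 hippocampal values lay far below the liver values, and that of mouse 1 was the highest among them. The other leading genes of the liver were mt-Co1, Apoe, Scd1, Apoa1, Serpina3k, Ttr, C3, Gc and Apoa2. Apart from mt-Co1 and Scd1, a desaturase that makes monounsaturated fatty acids, they encode proteins that hepatocytes secrete. Apoe, Scd1 and Ttr had more than traces in hippocampus. Apoe, which astrocytes also make to carry lipids, was at 1000 to 1178 CPM in the hippocampi and at 19767 to 24566 CPM in the livers, a log2 difference of 4.38 ± 0.49 (SE; edgeR adjusted p = 1.14e-05). Scd1 differed among the livers themselves, with 10791 and 8042 CPM in mice 1 and 4 and 21893 and 18290 CPM in mice 6 and 17.

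Among the 10 leading genes of the hippocampus were mt-Co1, Camk2a, mt-Cytb, mt-Rnr2, mt-Nd1, Ncdn, mt-Nd5 and Ddn. The mitochondrial genes take 5 of the 10 places. Camk2a, a kinase of the postsynaptic density, was at 4898, 5035, 4557 and 4260 CPM in the hippocampi and at 0.908 to 1.57 CPM in the livers of the 4 mice. Ddn, which encodes the postsynaptic protein dendrin, was at 1950 to 2365 CPM against 0.419 to 0.922 CPM. Ncdn, neurochondrin, was at 2494 to 2721 CPM and kept 17.3 to 26.1 CPM in liver. None of these 3 genes overlapped between the tissues.

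Most genes differed between the tissues. Of 15272 genes tested with edgeR's quasi-likelihood test, 13278 (86.9%) passed a Benjamini-Hochberg adjusted p of 0.05. Liver was higher for 6159 genes (40.3%) and lower for 7119 genes (46.6%). With library totals in place of TMM factors the division was 3826 higher and 9759 lower. With a fold change of at least 4 in addition, 2589 genes (17%) were higher and 4131 genes (27.0%) lower in liver. The values of the 4 mice of a tissue did not overlap with those of the other tissue for 84.2% of the genes tested. A gene that differs is thus the rule here, and the lists below are read against these shares.

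**Figure D2:**
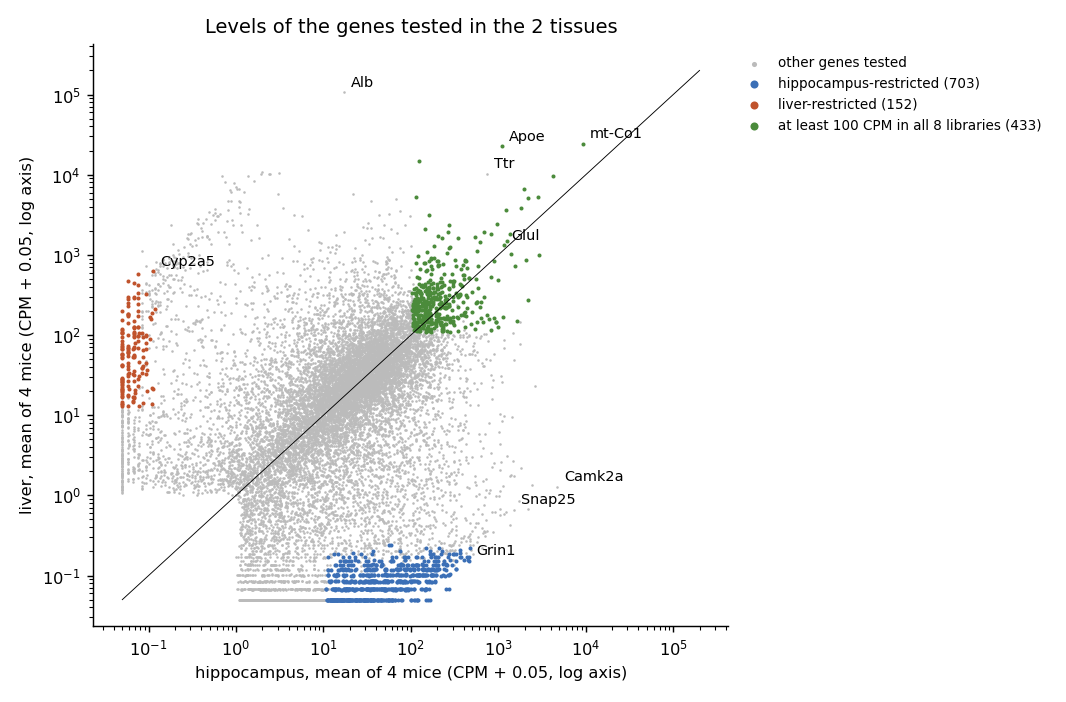
Mean level of each gene tested in liver (vertical, CPM + 0.05, log axis) against hippocampus (horizontal, same scale), with the line of equal levels. The 152 liver-restricted genes lie along the left edge, the 703 hippocampus-restricted genes along the lower edge, and the 433 genes with at least 100 CPM in all 8 libraries at the upper right, while Alb and other abundant liver genes lie to the right of the left edge.

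Secreted proteins of hepatocytes were higher in liver without exception among the genes listed. All 28 listed genes passed the test, against 40.3% of all genes tested, with a median log2 fold change of 12.25, and together they held 16.9 to 19% of the liver counts. Without the hippocampus of mouse 1 all 28 passed as well, and the median log2 fold change was 15.18. Apoa1, the main protein of high-density lipoprotein, was at 9443 to 12148 CPM in liver and at 0.103 to 7.29 CPM in hippocampus. Serpinc1, antithrombin, was at 3023 to 3460 CPM in liver and at 2.35, 0.103, 0 and 0 CPM in the hippocampi of mice 1, 4, 6 and 17. Fgb, a fibrinogen chain, was at 5093, 5261, 8186 and 7930 CPM in the livers of mice 1, 4, 6 and 17, with mice 6 and 17 above mice 1 and 4. The smallest differences of the list belonged to genes that the hippocampus expressed itself. Igf1, a growth factor, was at 5.43 to 6.41 CPM in hippocampus and at 697 to 890 CPM in liver (log2 7.04 ± 0.14 SE, edgeR adjusted p = 4.88e-11). Vtn, vitronectin, was at 39.3 to 51.3 CPM against 2878 to 3338 CPM.

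Ttr, which carries thyroid hormone and retinol, was the exception in size. The choroid plexus, the tissue that makes cerebrospinal fluid next to the hippocampus, is a known source of it. Ttr was at 10226, 10034, 11245 and 9904 CPM in the livers and at 32.6, 38.1, 872 and 2007 CPM in the hippocampi of mice 1, 4, 6 and 17, so that 2 hippocampi stood far above the other 2. The log2 difference was 3.81 ± 1.20 (SE; edgeR adjusted p = 0.0124). With mouse 13 added it was 2.14 and did not pass (edgeR adjusted p = 0.114). Other choroid plexus genes were also higher in the hippocampi of mice 6 and 17 than in those of mice 1 and 4. Clic6, a chloride channel protein, was at 1.31, 1.54, 12.6 and 31.9 CPM, Folr1, a folate receptor, at 0.449, 0.786, 6.05 and 12.7 CPM, and Kl, the klotho gene, at 22.9, 22.2, 45.9 and 81.4 CPM in mice 1, 4, 6 and 17. The summed level of the 12 listed choroid plexus genes was 60.6, 67.6, 982 and 2231 CPM in the hippocampi of mice 1, 4, 6 and 17. Ttr is among the 12 and made up most of each sum. The part of choroid plexus tissue in the Ttr values was not tested.

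All 30 listed hepatocyte enzymes were higher in liver, with a median log2 fold change of 11.92 and 4.81 to 6.15% of the liver counts. Without the hippocampus of mouse 1 the median was 14.08, with 3 of the 30 genes at 0 in the remaining hippocampi, where a fitted fold change depends on the prior count. The genes of the urea cycle were among them. Cps1, the enzyme of its entry step, was at 6169 to 7418 CPM in liver and at 0.171 to 3.18 CPM in hippocampus. Ass1, which makes argininosuccinate, kept 19.1 to 25.6 CPM in hippocampus beside 4937 to 6266 CPM in liver (log2 8.07 ± 0.31 SE, edgeR adjusted p = 2.33e-09). Cyp7a1, the rate-limiting enzyme of bile acid synthesis, reached 526 and 424 CPM in the livers of mice 1 and 4 but 21 and 34.9 CPM in those of mice 6 and 17. Cyp7a1 had 1 count in the 4 hippocampi together. Pck1, a gluconeogenic enzyme, also spread widely over the livers, at 3725, 2200, 522 and 1089 CPM. Hsd11b1, which regenerates active corticosteroid from its inert form, was expressed in both tissues, at 23.4 to 27.7 CPM in hippocampus and 900 to 956 CPM in liver (log2 5.14 ± 0.12 SE, edgeR adjusted p = 7.79e-11).

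Transcription factors of the liver showed the same direction. Of 18 listed, 17 were higher in liver, with a median log2 fold change of 9.66. Hnf4a, a nuclear receptor that maintains hepatocyte identity, was at 761 to 1070 CPM in liver and had counts in hippocampus only in mouse 1, at 0.483 CPM. Nr1h4, the bile acid receptor FXR, was at 109 to 216 CPM in liver and at 0.0684 to 0.276 CPM in hippocampus. Onecut1, also called HNF6, differed among the livers, at 5.72, 35.0, 3.69 and 55.7 CPM in mice 1, 4, 6 and 17. Prox1 did not pass the test. This factor, used by hepatocytes and by granule neurons of the dentate gyrus, was at 94.1 to 273 CPM in liver and at 78.8 to 152 CPM in hippocampus, and these ranges overlapped (log2 0.66 ± 0.32 SE, edgeR adjusted p = 0.0796, with the sign turned to -0.21 by library totals). With the mouse as a replicate block Prox1 passed (log2 0.58, edgeR adjusted p = 0.0468).

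Of 14 hepatocyte genes tested that mark a zone of the lobule, 11 were higher and 2 lower in liver. Cyp1a2, a pericentral cytochrome P450, was at 754 to 1377 CPM in liver and had counts in hippocampus only in mouse 1. Glul, the glutamine synthetase of pericentral hepatocytes and of astrocytes, was at 1142 to 1653 CPM in liver and at 1138 to 1194 CPM in hippocampus and did not pass the test (edgeR adjusted p = 0.322). Slc1a2, a glutamate transporter of the same pericentral cells and of astrocytes, was lower in liver, at 74.1 to 238 CPM against 1571 to 1910 CPM (log2 -3.62 ± 0.37 SE, edgeR adjusted p = 5.28e-06).

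The non-parenchymal cells of the liver were visible through their markers. All 6 Kupffer cell genes tested were higher in liver, and Clec4f, Cd5l and Vsig4 had 0 counts in every hippocampus. Clec4f, a lectin of these macrophages, was at 63.4 to 73.8 CPM in liver. All 7 genes of the sinusoidal endothelium were higher, such as the scavenger receptor Stab2, at 73.1 to 96.9 CPM against 0.275 to 0.410 CPM. Of 7 stellate cell genes, 6 were higher and Rgs5, a pericyte gene also found in brain vessels, was lower, at 33.8 to 53.4 CPM against 53.9 to 63.5 CPM. Bile duct genes were near the limit, since Krt19 reached no more than 2.13 CPM in a liver and 4 of the 6 listed were too low to be tested.

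The hippocampal cell types gave the opposite picture. All 18 pan-neuronal genes were lower in liver, against 46.6% of all genes tested, with a median log2 fold change of -9.91. Snap25, a SNARE protein of vesicle release, was at 1584, 1471, 1514 and 1480 CPM in the hippocampi and at 0.681, 0.210, 1.42 and 0.130 CPM in the livers of mice 1, 4, 6 and 17. Syt1, a calcium sensor of release, kept 15.7 to 38.4 CPM in liver. All 14 glutamatergic genes were lower as well. Slc17a7, the vesicular glutamate transporter, was at 1298 to 1411 CPM in hippocampus and at 0.130 to 0.780 CPM in liver. Grin1, the shared subunit of NMDA receptors, was at 414 to 482 CPM in hippocampus and at most 3 counts in any liver. All 12 GABAergic genes were lower. Gad1, which makes GABA, was at 221 to 249 CPM in hippocampus against 0.0681 to 0.142 CPM in liver, while the interneuron factor Lhx6 had 4.26 to 7.95 CPM in liver beside 12 to 13.6 CPM.

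Genes of the hippocampal fields were less uniform. Of 14, 11 were lower in liver and 1, Dsp, was higher. Dsp encodes desmoplakin, a desmosomal protein found in granule cells and epithelia, and its log2 difference of 0.94 fell to 0.09 with library totals. Mouse 4 differed from the other hippocampi. Fibcd1 and Wfs1, genes of CA1 pyramidal cells, were at 33.0 and 47.1 CPM in mouse 4 and at 130 to 155 and 107 to 191 CPM in the other 3 mice. C1ql2 and Dsp, genes of the dentate gyrus, were at 79.7 and 90.5 CPM in mouse 4 and at 46.2 to 53.7 and 47.1 to 59.9 CPM in the others. Calb2, listed here with the genes of thalamus and striatum, was at 86.0 CPM in mouse 4 and at 18.2 to 26.5 CPM in the others. The summed level of that list was 220 CPM in mouse 4 and 140 to 163 CPM in the others. Mbp, myelin basic protein, was at 704 CPM in mouse 4 and at 1366 to 1925 CPM in the others. Whether the piece dissected from mouse 4 differed in its fields or in neighbouring tissue was not tested.

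Neuronal transcription factors followed the neuronal genes, with 15 of 17 lower in liver. Neurod2 and Neurod6, factors of pyramidal neurons, were at 119 to 132 and 119 to 205 CPM in hippocampus and at most 2 counts in a liver. Zbtb20, needed for the identity of CA1 and also used by hepatocytes, was at 104 to 151 CPM in hippocampus and 118 to 223 CPM in liver and did not pass the test (edgeR adjusted p = 0.287).

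Glial and vascular genes differed in both directions. Of 11 astrocyte genes, 9 were lower in liver, such as Gfap, the glial filament protein, at 0.272 to 0.699 CPM against 263 to 312 CPM. The other two were higher in liver. Aldh1l1, a folate enzyme often used as an astrocyte marker, was at 1961 to 2366 CPM in liver and at 32.9 to 38.6 CPM in hippocampus (log2 5.97 ± 0.18 SE, edgeR adjusted p = 3.45e-10), and Clu, the secreted chaperone clusterin, was at 1696 to 2162 CPM against 634 to 719 CPM. All 11 oligodendrocyte genes were lower in liver. Of 9 microglial genes, 6 were lower and 1, Sall1, was higher, and its log2 difference of 0.57 turned to -0.29 with library totals, where 8 of the 9 genes were lower. Sall1 also lost its call with mouse 13 added (log2 0.39, edgeR adjusted p = 0.103). Cx3cr1, the fractalkine receptor, was at 47.7 to 53.2 CPM in hippocampus and at 0.204 to 0.780 CPM in liver. Csf1r and C1qa, which Kupffer cells share with microglia, were close, with Csf1r at 38.4 to 54.4 CPM in liver against 72.6 to 80.7 CPM, and C1qa at 26.0 to 31.2 CPM against 23.4 to 27.3 CPM (edgeR adjusted p = 0.121). Of 8 brain endothelial genes, 4 were lower and 4 higher, of which 2 were still higher with library totals. Slco1c1, a thyroid hormone transporter of the blood-brain barrier, was at 47.7 to 57.9 CPM in hippocampus and at 0.0648 to 0.280 CPM in liver, whereas its relative Slco1a4 was at 95.5 to 150 CPM in liver against 27.2 to 38.1 CPM.

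Traces of neighbouring tissue and blood were also measured. Of 11 genes of thalamus and striatum, 8 were lower and 3 higher in liver, of which 1 was still higher with library totals. Tcf7l2, a thalamic marker that hepatocytes also express, was at 14.8 CPM in the hippocampus of mouse 4 and at 1.49 to 2.90 CPM in the others. Its higher level in liver lost its call with library totals (edgeR adjusted p = 0.346), by DESeq2 (adjusted p = 0.0581) and without the hippocampus of mouse 1 (edgeR adjusted p = 0.117). All 5 blood genes tested were higher in liver. Hbb-bs, a beta globin, was at 138 to 242 CPM in liver against 12.7 to 18.5 CPM, and Alas2, the heme enzyme of red cell precursors, at 196 to 287 CPM against 0.943 to 2.06 CPM.

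**Figure D3:**
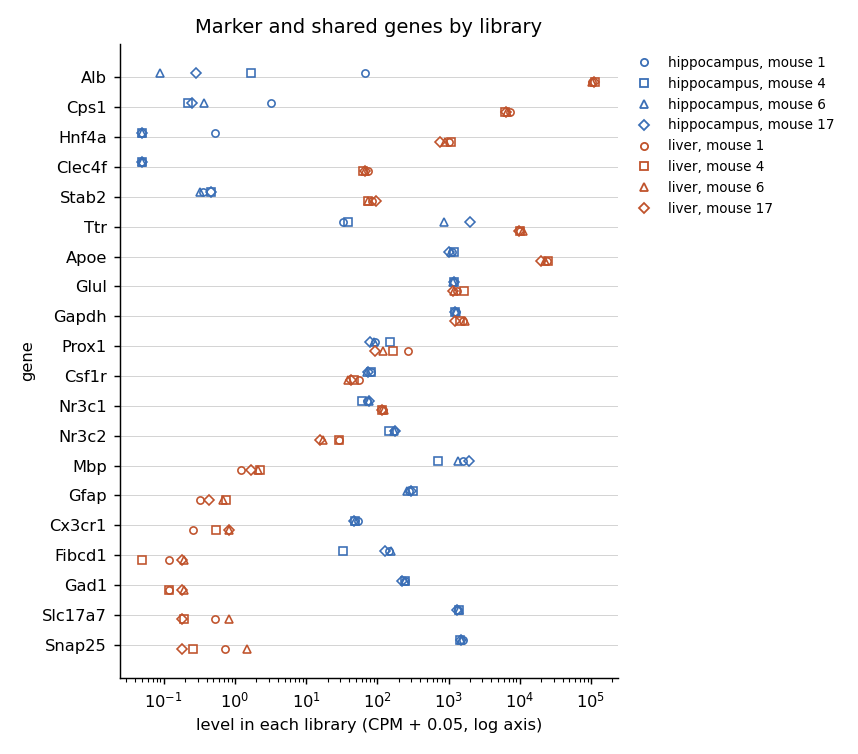
Level of 20 marker and shared genes in each library (CPM + 0.05, log axis), hippocampus above and liver below the line of each gene, with 1 marker shape per mouse. Hepatocyte genes sit to the right in liver and neuronal genes in hippocampus, Glul, Gapdh and Prox1 overlap, and Ttr and Alb differ most among the hippocampi.

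Of 9 listed genes, which take part in corticosteroid action and include Ube3a, 4 were higher and 2 lower in liver and 3 did not pass, and with library totals 3 were higher and 4 lower. Nr3c1, the glucocorticoid receptor, was at 115 to 123 CPM in liver and 60.5 to 77.2 CPM in hippocampus (log2 0.73 ± 0.09 SE, edgeR adjusted p = 2.01e-05), with the sign turned to -0.12 by library totals. Nr3c2, the mineralocorticoid receptor, was lower in liver, at 15.7 to 29.4 CPM against 148 to 175 CPM (log2 -2.86 ± 0.21 SE, edgeR adjusted p = 3.62e-07). Serpina6, the corticosteroid-binding globulin of plasma, was at 247 to 661 CPM in liver and at most 3 counts in any hippocampus. Tsc22d3, a target known as GILZ, was higher in liver, and Fkbp5, a receptor chaperone, did not pass (edgeR adjusted p = 0.0544), but it was lower in liver with the replicate block (log2 -1.06, edgeR adjusted p = 0.00432), with library totals (edgeR adjusted p = 0.00178), with median-of-ratios factors (edgeR adjusted p = 0.0499) and by DESeq2 (adjusted p = 0.0240). Ube3a, the gene deleted in AS mice, was at 60.4 to 73.4 CPM in liver and 57.6 to 73.1 CPM in hippocampus of these WT mice and did not pass the test (log2 0.06 ± 0.10 SE, edgeR adjusted p = 0.561), while with library totals it was lower in liver (log2 -0.79, edgeR adjusted p = 2.66e-05).

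A gene was called restricted to a tissue when it had at least 10 CPM in each of its 4 libraries and at most 3 counts in each of the 4 libraries of the other tissue. The calls rest on levels alone and no test was made of them. By this rule 703 genes were restricted to hippocampus and 152 to liver. Liver-restricted genes held 0.959 to 1.19% of the liver counts and hippocampus-restricted genes 6.74 to 6.98% of the hippocampal counts. No count at all was found in the other tissue for 164 of the 703 and 44 of the 152 genes. The liver number rested on 1 library, because without the hippocampus of mouse 1 it was 302, with 11.2 to 12.7% of the liver counts, while that of hippocampus was 700.

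The absolute rule leaves out the most abundant genes of both tissues, since a few counts of them appeared in the other tissue. With a rule chosen after the data were seen, which asks for a 100-fold gap between the lowest library of a tissue and the highest of the other, 488 genes held 38.7 to 40.4% of the liver counts and 1010 genes held 22.1 to 22.6% of the hippocampal counts. Most of these genes were protein-coding, namely 446 of the 488 and 978 of the 1010.

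The liver-restricted genes with the highest levels were Cyp2a5, Selenbp2, Mup14, Serpina6, Cpb2, Hsd17b6, Amdhd1, Mup21, Ugt1a1 and Mst1. They cover drug and steroid metabolism (Cyp2a5, Hsd17b6, Ugt1a1), major urinary proteins, which carry pheromones (Mup14, Mup21), and plasma proteins (Serpina6, Cpb2, Mst1). Cyp2a5, a cytochrome P450, was at 962, 1222, 143 and 157 CPM in the livers of mice 1, 4, 6 and 17 and at 0.0337 to 0.104 CPM in hippocampus. Cpb2, a carboxypeptidase of the clotting system, was steadier, at 396 to 465 CPM. The Mup genes are near-identical copies, and their separate counts are uncertain. Without the hippocampus of mouse 1, the leading restricted genes were Ahsg, Cyp2e1, Fabp1, Cyp3a11, Serpina1c, Mat1a, Ambp, Serpinc1, Ces1c and H2-Q10. Ahsg, the plasma protein fetuin-A, was at 8980 to 10539 CPM in liver and at 5.25, 0.103, 0 and 0 CPM in the hippocampi of mice 1, 4, 6 and 17. Of the listed liver transcription factors, 5 were restricted by the main rule, among them Foxa1, Foxa3, Nr0b2 and Nr5a2, and 8 without the hippocampus of mouse 1.

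Among the 10 hippocampus-restricted genes with the highest levels were Rnf112, Chgb, Grin1, Jph4, Ptprn, Uchl1, Cnih2, Mobp and Snph. Cnih2 is a partner of AMPA receptors, and Chgb and Ptprn are proteins of dense-core vesicles. Rnf112, a brain ubiquitin ligase, was at 438, 510, 488 and 457 CPM in hippocampus and at 0.130 to 0.213 CPM in liver. Mobp, a myelin protein, was at 155 CPM in mouse 4 and at 392 to 503 CPM in the other 3 mice. Of the listed neuronal transcription factors, 7 were restricted to hippocampus, among them Neurod2, Neurod6, Tbr1 and Neurod1.

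The calls were looked at in libraries that the rule had not used. In mouse 13, 151 of the 152 liver-restricted genes reached 10 CPM in liver and 133 stayed at or under 3 counts in hippocampus. Of the 703 hippocampus-restricted genes, 626 reached 10 CPM in its hippocampus and 684 stayed at or under 3 counts in its liver. Over the 16 other livers and 16 other hippocampi of the continuous experiment, which include AS and CORT mice, 124 of the 152 genes kept 10 CPM in every liver and 118 the low level in every hippocampus. For the 703 genes these numbers were 550 and 572. In the 24 hippocampi of the acute experiment, 670 of the 703 hippocampus-restricted genes kept 10 CPM in every library, and 143 of the 151 liver-restricted genes in that table kept to 3 counts or fewer. Of the 302 genes called without the hippocampus of mouse 1, 271 stayed at or under 3 counts in the hippocampus of mouse 13, 178 in each of the 16 other hippocampi and 257 of the 301 in the acute table. Leaving out the AS vehicle hippocampus of mouse 2, which is flagged below, raised the 178 to 235 and the 118 to 120.

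The sequences before the start of these genes differed in base composition. RefSeq windows on GRCm38.p6 were used, from 250 bases before the start, where the start lay within 100 bases of the annotated gene start. They were found for 81 of the 152 and 344 of the 703 restricted genes, and for 283 of the 488 and 485 of the 1010 genes of the 100-fold rule. The median GC content was 45.6% in liver-restricted and 60.8% in hippocampus-restricted genes, against 54.8% over all 14476 windows of the table and 59.6% over 8599 genes tested. Short words were searched on both strands, among them TATAAA of the TATA box, GTTAAT, a word found in sites of homeodomain factors, and GGGCGG, the GC box. TATAAA was in 21% of the liver-restricted and 6.98% of the hippocampus-restricted windows, against 11.2% of all windows and 6.88% of those of genes tested. GTTAAT was in 17.3% and 4.36%, against 5.44% and 4.22%. GGGCGG was in 8.64% and 51.7%, against 42.4% and 58.0%. Without the hippocampus of mouse 1, the shares over 183 of the 302 liver-restricted genes were 23, 18.6 and 7.65%. With the 100-fold rule the shares were 20.5, 18.4 and 14.8% in liver and 7.01, 4.54 and 53.2% in hippocampus. Among the remaining words, CAAAGTCCA, a form of the HNF4 site, was in 2 liver-restricted windows (2.47%) and 1 hippocampus-restricted window (0.291%), against 0.414% of all windows and 0.419% of those of genes tested. TGACGTCA, the site of CREB, was in 1 (1.23%) and 6 (1.74%) windows, against 2.21 and 2.93%. TTCAGCACC, part of the site of the neuronal repressor REST, was in 0 and 4 windows (1.16%), against 0.332 and 0.314%. A match is a description of the letters and not evidence of binding.

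Windows of 4 abundant genes of the 100-fold rule are shown because they hold these words, the liver genes GTTAAT and the hippocampal genes GGGCGG or its complement, in capitals. Each runs 5′ to 3′ on the strand of the gene and ends at the base before the RefSeq start. Alb lies at chr5:90460620-90460869 on the plus strand and Gc, the vitamin D-binding protein, at chr5:89457899-89458148 on the minus strand. Slc17a7 lies at chr7:45163671-45163920 and Map1a, a microtubule protein of dendrites that was named after its values were seen, at chr2:121289352-121289601, both on the plus strand.
Alb: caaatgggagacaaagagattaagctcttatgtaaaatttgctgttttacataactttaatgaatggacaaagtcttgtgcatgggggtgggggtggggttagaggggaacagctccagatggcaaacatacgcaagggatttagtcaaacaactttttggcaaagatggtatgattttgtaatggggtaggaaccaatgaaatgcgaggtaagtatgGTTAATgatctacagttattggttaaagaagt
Gc: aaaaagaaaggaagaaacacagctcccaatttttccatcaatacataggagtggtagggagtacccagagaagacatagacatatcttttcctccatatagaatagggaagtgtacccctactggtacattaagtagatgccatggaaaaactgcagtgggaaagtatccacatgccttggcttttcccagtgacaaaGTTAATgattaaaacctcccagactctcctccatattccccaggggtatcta
Slc17a7: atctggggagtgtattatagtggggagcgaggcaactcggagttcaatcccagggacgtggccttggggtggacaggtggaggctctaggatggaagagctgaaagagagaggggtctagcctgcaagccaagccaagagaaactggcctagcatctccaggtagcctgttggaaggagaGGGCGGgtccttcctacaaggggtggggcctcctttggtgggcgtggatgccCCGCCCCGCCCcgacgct
Map1a: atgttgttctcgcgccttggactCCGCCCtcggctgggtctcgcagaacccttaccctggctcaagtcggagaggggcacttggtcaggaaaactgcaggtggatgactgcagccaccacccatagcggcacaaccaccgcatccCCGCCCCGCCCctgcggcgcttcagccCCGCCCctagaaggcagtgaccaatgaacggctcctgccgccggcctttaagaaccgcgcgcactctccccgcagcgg
The word GTTAAT began 32 bases before the start of Alb and 52 bases before that of Gc. The GC box was found 3 times in Slc17a7 and 4 times in Map1a. The GC content of the windows was 39.2% in Alb, 42.0% in Gc, 61.2% in Slc17a7 and 66.0% in Map1a.

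Genes high in both tissues were defined by at least 100 CPM in each of the 8 libraries. There were 433, which was 28.4% of the 1523 genes this high in all 4 hippocampi and 26.8% of the 1615 this high in all 4 livers. They held 18.1 to 18.7% of the hippocampal and 17.9 to 19.5% of the liver counts. Of the 433, 253 were higher and 102 lower in liver and 78 did not pass the test. Only 31 were at least 4-fold higher and 12 at least 4-fold lower, against 17% and 27.0% of all genes tested. This comparison is bounded by the choice of the genes, since a gene high in both tissues has less room to differ.

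By the smaller of the 2 tissue means, the leading shared genes were mt-Co1, mt-Cytb, mt-Nd1, mt-Nd5, Eef1a1, mt-Nd4, Fth1, Gapdh, mt-Nd2 and Glul. mt-Co1 and mt-Nd1 passed the test without the replicate block and not with it (edgeR adjusted p = 0.0787 and 0.0706), nor with library totals (edgeR adjusted p = 0.237 and 0.910). With library totals mt-Cytb, mt-Nd5 and mt-Nd4 lost their calls as well (edgeR adjusted p = 0.277, 0.158 and 0.226). Eef1a1, which brings transfer RNA to the ribosome, was at 1799 to 2027 CPM in hippocampus and 5973 to 6906 CPM in liver. Fth1, the ferritin heavy chain that stores iron, was at 1138 to 1503 CPM and 1611 to 2026 CPM and did not pass the test (edgeR adjusted p = 0.0508), although it was higher in liver without the hippocampus of mouse 1 (edgeR adjusted p = 0.0257) and by DESeq2 (adjusted p = 0.00117), and lower with library totals (edgeR adjusted p = 0.0196). Gapdh, a glycolytic enzyme, was at 1221 to 1278 CPM and 1236 to 1689 CPM, with overlapping ranges (edgeR adjusted p = 0.155). Gapdh was higher in liver by DESeq2 (log2 0.23, adjusted p = 0.0210) and lower with library totals (log2 -0.60, edgeR adjusted p = 0.00216). Among the shared genes, wide differences were found in Scd1 and in Selenop, a selenium carrier of plasma named after its values were seen, at 113 to 119 CPM in hippocampus and 4362 to 6329 CPM in liver. In the other direction, Aldoa, a glycolytic aldolase, was at 1526 to 1710 CPM in hippocampus and 114 to 172 CPM in liver.

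Genes often used as stable references were no exception to the difference between the tissues. Of 31 listed, 13 were higher and 14 lower in liver and 4 did not pass. This lay close to the shares over all genes tested, of which 40.3% were higher and 46.6% lower. Actb was at 730 to 905 CPM in hippocampus and 425 to 700 CPM in liver (log2 -0.62 ± 0.18 SE, edgeR adjusted p = 0.00795). B2m, the light chain of MHC class I, was at 30.9 to 34.7 CPM in hippocampus and 1277 to 1451 CPM in liver. Tuba1a, an alpha tubulin of neurons, was at 291 to 327 CPM and 2.11 to 5.04 CPM. Ppia and Hspa8, along with Gapdh and Fth1, were the genes that did not pass. With library totals, 11 of the 31 were higher and 19 lower.

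In 3 large sets of housekeeping machinery the calls depended on the scaling. Of 81 cytosolic ribosomal protein genes, 75 were higher in liver by the edgeR test with TMM factors and 6 did not pass, with a median log2 fold change of 1.02, but with library totals 38 were higher and 19 lower, with a median of 0.16. Of 37 proteasome genes, 34 were higher and 1 lower, with a median of 0.86, against 11 and 16 with library totals and a median of 0.0027. Of 78 nuclear genes of oxidative phosphorylation, 73 were higher and 3 lower, with a median of 1.13, against 44 and 15 with library totals and a median of 0.27. The medians of the 3 lists lay above the median of all genes tested, which was -0.16 with TMM factors and -1.02 with library totals. A change of scaling moves all genes by nearly the same amount, so it cannot test this gap. Together the ribosomal genes held 1.28 to 1.37% of the hippocampal and 1.43 to 1.55% of the liver counts.

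Many enzymes and transporters come in forms that tissues choose between. Shares of a family were computed per length, as percent of its summed TPM. Of 23 families listed, 21 had 1 leading member in all 4 libraries of each tissue, and in 18 of these the leading member differed between the tissues. In the phosphofructokinases Pfkm led in every hippocampal library, at 63.3% of the family, but no single member led in every liver library. In the beta tubulins no single member led in every library of either tissue.

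Families of glucose metabolism had different leading forms in the tissues. Pklr was 98.5% of the pyruvate kinases in liver and Pkm 99.9% in hippocampus. Ldha was 99.2% of the lactate dehydrogenases in liver, while Ldhb made up 74.7% in hippocampus. Slc2a2, the glucose transporter of hepatocytes, was 95.8% of its family in liver, and in hippocampus Slc2a1 and the neuronal Slc2a3 shared 56.2 and 43.8%. The liver forms of glycogen phosphorylase and synthase, Pygl and Gys2, were 98.3 and 99.0% in liver, and the brain and muscle forms, Pygb and Gys1, 88.0 and 96.5% in hippocampus.

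Lipid and amino acid enzymes changed likewise. Cpt1a, which brings fatty acids into mitochondria, was 99.8% of its family in liver, and Cpt1c, the brain form, 85.6% in hippocampus. Mat1a was 98.1% of the methionine adenosyltransferases in liver and Mat2a 99.2% in hippocampus. Of the hydroxylases that clear cholesterol, Cyp27a1 stood at 84.0% ± 15.6 (SD, n = 4) in liver, where Cyp7a1 varied, and Cyp46a1 at 96.2% ± 0.9 (SD, n = 4) in hippocampus. The same member led in both tissues for the sodium pump beta chains (Atp1b1), elongation factor 1 alpha (Eef1a1) and the monocarboxylate transporters (Slc16a1). Eef1a2, the form of neurons and muscle, was 30.1% of its family in hippocampus and near 0 in liver.

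**Figure D4:**
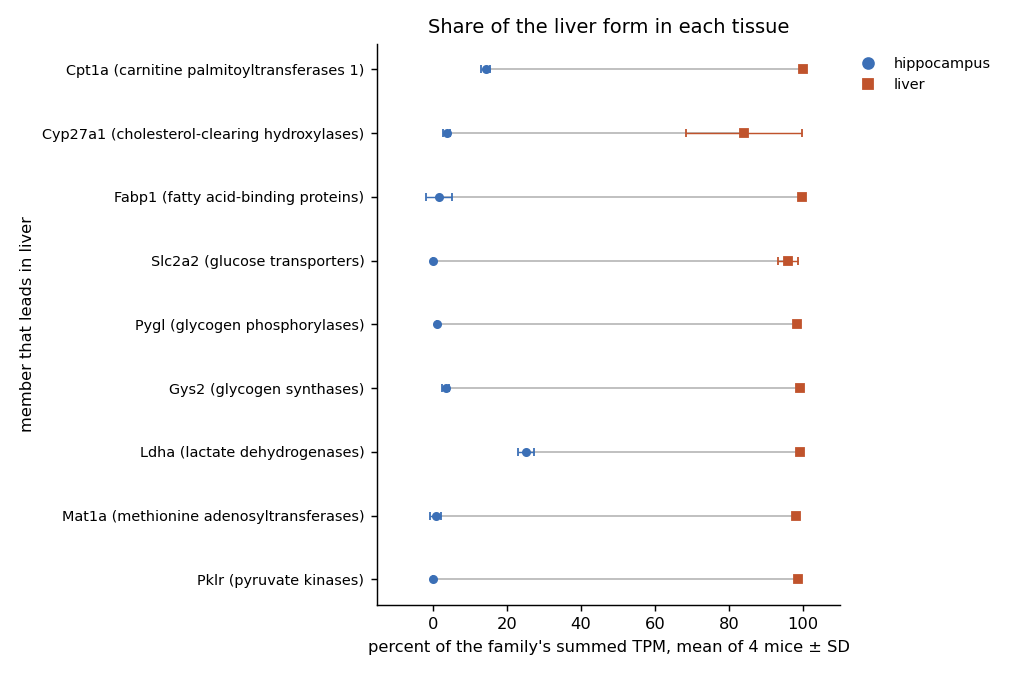
Share of the member that leads in liver, as percent of the summed TPM of its family (mean of 4 mice with SD), for 9 of the 18 families with a different leading member in each tissue, drawn because their liver member is named in the text. Liver shares lie between 84.0 and 99.8% and hippocampal shares at 25.3% or below, while over all 18 families the liver shares reached down to 56.0% and the hippocampal shares up to 30.3%.

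The 4 mice differed more from each other in liver than in hippocampus. Over 6510 genes with a mean of at least 10 CPM in both tissues, the median SD of log2 CPM between the 4 mice was 0.156 in liver and 0.0860 in hippocampus, and it was larger in liver for 80.8% of the genes. This share was 55.4% with mouse 13 added. The livers fell into 2 pairs, mice 1 and 4 and mice 6 and 17. As a description across genes, which are not independent, the deviations from the tissue mean correlated at r = 0.53 and r = 0.52 within these pairs and at r = -0.74 to -0.80 between them. Deviations from a mean of 4 libraries tend to correlate negatively by construction, which makes up a part of the negative values.

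The 5 liver genes with the largest SD followed this division. Dbp, a transcription factor of the circadian output, was at 288 and 280 CPM in the livers of mice 1 and 4 and at 2.62 and 2.33 CPM in those of mice 6 and 17. Arntl, which encodes the core clock factor BMAL1, was at 0.408 and 0.839 CPM in mice 1 and 4 and at 57.6 and 41.9 CPM in mice 6 and 17. Rgs16, Ciart and Usp2 followed Dbp, at 128, 170, 10.0 and 1.23 CPM, at 37.4, 31.8, 0.851 and 0.130 CPM, and at 112, 109, 2.34 and 3.37 CPM in mice 1, 4, 6 and 17. In hippocampus the division was small, with Dbp at 63.2, 64.6, 30.7 and 33.6 CPM and Arntl at 23.8, 20.7, 22 and 28.9 CPM. Dbp, Arntl, Ciart and Usp2 therefore did not pass the test between the tissues (edgeR adjusted p = 0.233 to 0.996), although the liver values lay on either side of the hippocampal ones. The sources used here do not give the time of day at which each mouse was killed in this experiment, and its part was not tested. Several metabolic genes named above followed the same division of the livers, such as Cyp7a1, Cyp2a5, Cyp2e1, Scd1 and the fibrinogen chain Fgb.

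In hippocampus the 5 genes with the largest SD were Alb, Ttr, mt-Co3, Clic6 and Enpp2. Alb was high in mouse 1, mt-Co3 in mouse 17, and the choroid plexus genes Ttr and Clic6 in mice 6 and 17. Enpp2, autotaxin, which choroid plexus and oligodendrocytes express, was at 139, 87.1, 387 and 954 CPM in mice 1, 4, 6 and 17.

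**Figure D5:**
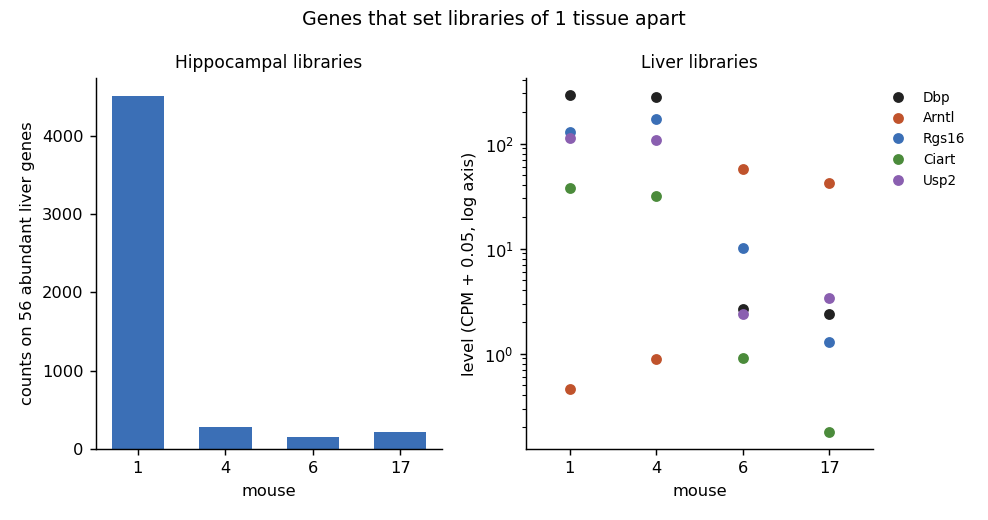
Left, counts on 56 abundant liver genes in each hippocampal library (linear axis from 0), with 4513 in mouse 1 and 155 to 280 in the others. Right, level of the 5 liver genes with the largest SD in each liver (CPM + 0.05, log axis), where Arntl is low in mice 1 and 4 and high in mice 6 and 17, and the other 4 genes are the reverse.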

How the data were processed

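RNA of liver and left hippocampus was sequenced as stranded, mRNA-enriched, paired-end libraries. The authors aligned the reads with STAR to mm10 and deposited HTSeq read counts per gene, not normalized. The annotation release and the use of strand in counting are not given in the sources used here. Rows that name no gene (11.8 to 20.7% of the reads) stayed out of library sizes and tests, and 0 columns belonged to no listed sample. Symbols came from GENCODE M 21 for 55480 of 55573 IDs. The deposited counts of the 8 libraries were tested with edgeR 4.0.16 (quasi-likelihood, TMM, tissue as the only term, Benjamini-Hochberg) in R 4.3.3, for genes with over 20 size-factor-scaled counts in at least 3 libraries of a tissue. DESeq2 1.42.0 and limma 3.58.1 were alternatives. The fit was also run on simulated counts, with hippocampal means in both arms and few changed genes, balanced in direction. Such counts lack the wide differences between the tissues, so they cannot check the scaling of this comparison. TPM used the union exon length. Concentration was tested by exact permutation of libraries (70 splits) in Python 3.11.15 with scipy 1.17.1.

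Named genes were the 10 with the highest mean level among the top genes of each tissue, among the restricted genes of each tissue and among the genes high in both, the 5 with the largest SD in each tissue, and examples from the fixed gene lists. Members and lists were chosen with earlier results of these data known. A p-value measures the spread between these mice. Same-numbered samples were taken as 1 mouse. Their deviations from the tissue means correlated at r = -0.014 to 0.055 over 6510 genes, and the paired fit with a replicate block is given as an alternative. Floors cover counting error only. Results of some genes are not reported here.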

Additional observations from a re-analysis of the deposited data

Results flagged for a closer look

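Dixon's ratio was computed for 356 groups of 4 libraries and passed its 95% critical value in 47. The 47 cannot be set against a chance rate of 1 in 20, because the groups were neither independent nor chosen blindly. Some genes were named for their large SD, and some rested on few counts. Many liver genes were high together in the hippocampus of mouse 1. The hippocampus of mouse 1 was the outlying library in 30 of the 47.

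In the hippocampus of mouse 1, the values far above the other hippocampi were, in CPM, 66.7 for Alb, 11.9 for Serpina3k, 8.63 for Apoa2, 7.29 for Apoa1, 7.22 for Gc, 5.28 for Serpina1c and 5.25 for Ahsg. They were 3.8 for Fgb, 3.18 for Cps1, 3.04 for Fabp1, 2.83 for Mat1a, 2.45 for Cyp2e1, 2.35 for Serpinc1, 2.11 for H2-Q10 and 2.04 for Cyp3a11. They were 1.97 for Ambp, 1.93 for Ces1c, 1.0 for Pklr, 0.932 for Pck1, 0.483 for Hnf4a and 0.138 for Cyp1a2. The remaining ones rested on at most 3 counts, at 0.104 CPM for Cpb2, Hsd17b6, Mst1 and Selenbp2, at 0.0691 CPM for Serpina6 and Ugt1a1, and at 0.0345 CPM for Cyp7a1, Mup14 and Mup21.

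Mouse 4 stood apart in hippocampus for Calb2 at 86.0, Vtn at 51.3, Tcf7l2 at 14.8 and Rgs16 at 13.1 CPM. Mouse 17 stood apart in hippocampus for Jph4 at 392 and mt-Co3 at 121 CPM. In liver, Zbtb20 was at 223 CPM in mouse 1 and Cpt1c at 0.583 CPM in mouse 17. Summed over lists, the hippocampal field genes reached 642 CPM in the liver of mouse 1, and in the liver of mouse 17 the housekeeping genes summed to 43789 CPM and the nuclear oxidative phosphorylation genes to 15792 CPM. Differences of at most 3 counts were flagged for Foxa1 (0.101 CPM) and Nr0b2 (0.0337 CPM) in the hippocampus of mouse 17, and in liver for Grin1 (0.210 CPM) and Kl (0.0699 CPM) in mouse 4, Tbr1 (0.0648 CPM) in mouse 17 and Neurod6 (0 CPM) in mouse 6.

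Outside the comparison, the AS vehicle hippocampus of mouse 2 held 1382 counts on the 56 abundant liver genes, against 138 to 328 in the 18 hippocampi other than those of mice 1 and 2. The hippocampus of mouse 13, which the study set aside, held 274230 counts of Ttr.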

How the results depend on the processing

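The number of genes higher in liver fell to 3826 with library totals, and without a filter 6517 genes were at least 4-fold lower in liver. The paired fit with a replicate block gave 5989 higher and 7026 lower genes, and 2576 and 4153 with a fold of at least 4. With the block Rgs16 and mt-Co3 also lost their calls, at adjusted p of 0.0585 and 0.145, and apart from these, Prox1, Fkbp5, mt-Co1, mt-Nd1 and the reversals below it changed no call of a named gene. Without 1 mouse at a time, the liver-restricted genes numbered 158 to 307. They were 302 without the hippocampus of mouse 1 alone, 488 with a 100-fold gap and 344 with at most 0.5 CPM in the other tissue. With 0 counts in the other tissue, 44 liver and 164 hippocampal genes remained, with at least 1 CPM on the high side 375 and 1518, and with at least 100 CPM 31 and 145. Genes high in both tissues numbered 1346 at 50 CPM and 107 at 200 CPM.

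The paired sign flip (replicate block) gave the differences between tissues 12.7 percentage points, -814 genes, -3386 effective genes and -3007 detected genes with p = 0.125, the smallest exact permutation p that 4 pairs allow. Without 1 mouse at a time these differences ranged from 12.2 to 13.2, from -824 to -804, from -3441 to -3335 and from -3056 to -2969, where 3 against 3 cannot go below an exact p of 0.1. The mitochondrial share differed by -1.04 percentage points in TPM and by 0.929 with mouse 13 added (exact permutation p = 0.0397, with 5 mice).

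Library totals turned the log2 fold change of Arntl to -0.77, C1qa to -0.70, Fth1 to -0.45, Gapdh to -0.60, Glul to -0.68, Nr3c1 to -0.12, Ppia to -0.71, Prox1 to -0.21, Sall1 to -0.29, Ube3a to -0.79 and Zbtb20 to -0.61. Of these, C1qa, Fth1, Gapdh, Glul, Ppia, Ube3a and Zbtb20 passed as lower in liver, as did Hspa8 and Enpp2, while Dsp, Slc16a1, mt-Cytb, mt-Nd4 and mt-Nd5 lost their calls. The replicate block turned Arntl to -1.17 and Dbp to -0.32, and Ube3a was at -0.0058 without the hippocampus of mouse 1. Over 144 named genes and 6 alternatives, 821 values kept direction and side of the threshold. The alternatives added after the data were seen were the 100-fold rule, leaving out the hippocampus of mouse 1, and promoter starts at any distance from the annotated start. The share of genes with a larger SD in liver ranged from 70.2 to 83.5% without 1 mouse at a time and was 55.4% with mouse 13.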
